A study of Mus musculus with 2 samples.

Results

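The 9 genes described here encode components, receptors and regulators of the complement system: C1qa, C1qb and C1qc for the chains of the initiator C1q, the components C3 and C4b, the receptors C3ar1 and C5ar1, and the regulators Serping1 and Cd59a. They were taken by symbol from the deposited matrices, where each of the 9 has 1 row among 53717 genes. Their identifiers there are ENSMUSG00000036887 (C1qa), ENSMUSG00000036905 (C1qb), ENSMUSG00000036896 (C1qc), ENSMUSG00000024164 (C3), ENSMUSG00000073418 (C4b), ENSMUSG00000040552 (C3ar1), ENSMUSG00000049130 (C5ar1), ENSMUSG00000023224 (Serping1) and ENSMUSG00000032679 (Cd59a). The cells were hippocampal, from 5xFAD mice, which are transgenic and carry human amyloid precursor protein and presenilin mutations and form amyloid plaques. In the NeuroD1 group the hippocampi had received AAV9-GFAP::NeuroD1-P2A-GFP, a virus that carries the proneural transcription factor NeuroD1 together with green fluorescent protein, and in the GFP group AAV9-GFAP::GFP, with the fluorescent protein alone. The GFAP promoter, which is active in astrocytes, drives both transgenes, so both groups share the 5xFAD genotype, the virus and its fluorescent protein. Tissue was taken 3 weeks after injection from 3 mice a group according to the study's design, and the labels give a time of 6 months without saying what it counts. Each group is 1 library of single cells, and whether the mice were pooled in it is not stated. No test between the libraries was therefore possible, and every interval below is a 95% interval that covers counting error only.

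Complement is a cascade of blood and tissue proteins that tags cells, debris and protein deposits. C1q binds such targets, and its partner proteases cut C4, a step that leads on to the cutting of C3. Fragments of C3 coat the target and are read by receptors on phagocytes. The small fragments C3a and C5a act on the receptors encoded by C3ar1 and C5ar1. In the brain, microglia are the known main source of C1q, and C1q, C3 and C4 are known from mouse work to take part in removing synapses and to collect around amyloid plaques. Serping1 encodes the C1 inhibitor, which blocks the proteases of C1, and Cd59a a membrane protein that blocks assembly of the terminal pore.

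The NeuroD1 library held 13402 cell barcodes with 51236521 unique molecular identifiers (UMIs, counted molecules), and the GFP library 11739 barcodes with 17504950 UMIs. After removal of low-quality barcodes and called doublets, 12786 cells remained in the NeuroD1 library, against 11079 in the GFP library, with medians of 2556 and 1168 UMIs a cell. The libraries share 99 barcodes. Neurod1 itself, whose mouse transcript need not include the viral one, had 16 UMIs in NeuroD1 astrocyte-like cells and 2 in GFP astrocyte-like cells, and the GFP transcript had 46.6 and 8096 CPM there (UMIs of a gene per 1000000 UMIs of the class), so neither transgene checks the labels. Xist stood at 0.0413 CPM in the NeuroD1 library, against 103 CPM with GFP alone, and Ddx3y of the Y chromosome at 69.5, against 0.0618 CPM, so the sex of the animals and the vector cannot be told apart. Haemoglobin transcripts made up 0.461% of NeuroD1 UMIs and 0.00108% of GFP UMIs. Cells were clustered without any complement gene and named from marker genes, which gave 15 named classes. Microglia-like cells were 1278 in the NeuroD1 library, against 3637 in the GFP library, astrocyte-like cells 3675 and 2164, and oligodendrocyte-like cells 3141 and 2270.

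Each member had its own set of source cells. The C1q chains and both receptors were highest in the microglia-like and border macrophage or monocyte-like classes, C4b in oligodendrocyte-like and astrocyte-like cells, C3 in ependymal cell-like cells, Serping1 in fibroblast-like and smooth muscle-like cells, and Cd59a in choroid plexus epithelium-like and endothelial cell-like cells. These leading classes were the same in both libraries, apart from C5ar1, whose CPM was higher still in a neutrophil-like class of 4 NeuroD1 and 6 GFP cells, with 7 and 6 UMIs, and C4b, whose NeuroD1 level in border macrophage or monocyte-like cells was near that of astrocyte-like cells. Set between the libraries, C4b was lower in NeuroD1 glia, C5ar1 was higher in NeuroD1 macrophages, and C1q in microglia-like cells had a ratio of 1.34. C3ar1 in microglia-like, Serping1 in smooth muscle-like and Cd59a in choroid plexus epithelium-like cells had ratios whose intervals hold 1.

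**Figure D1:**
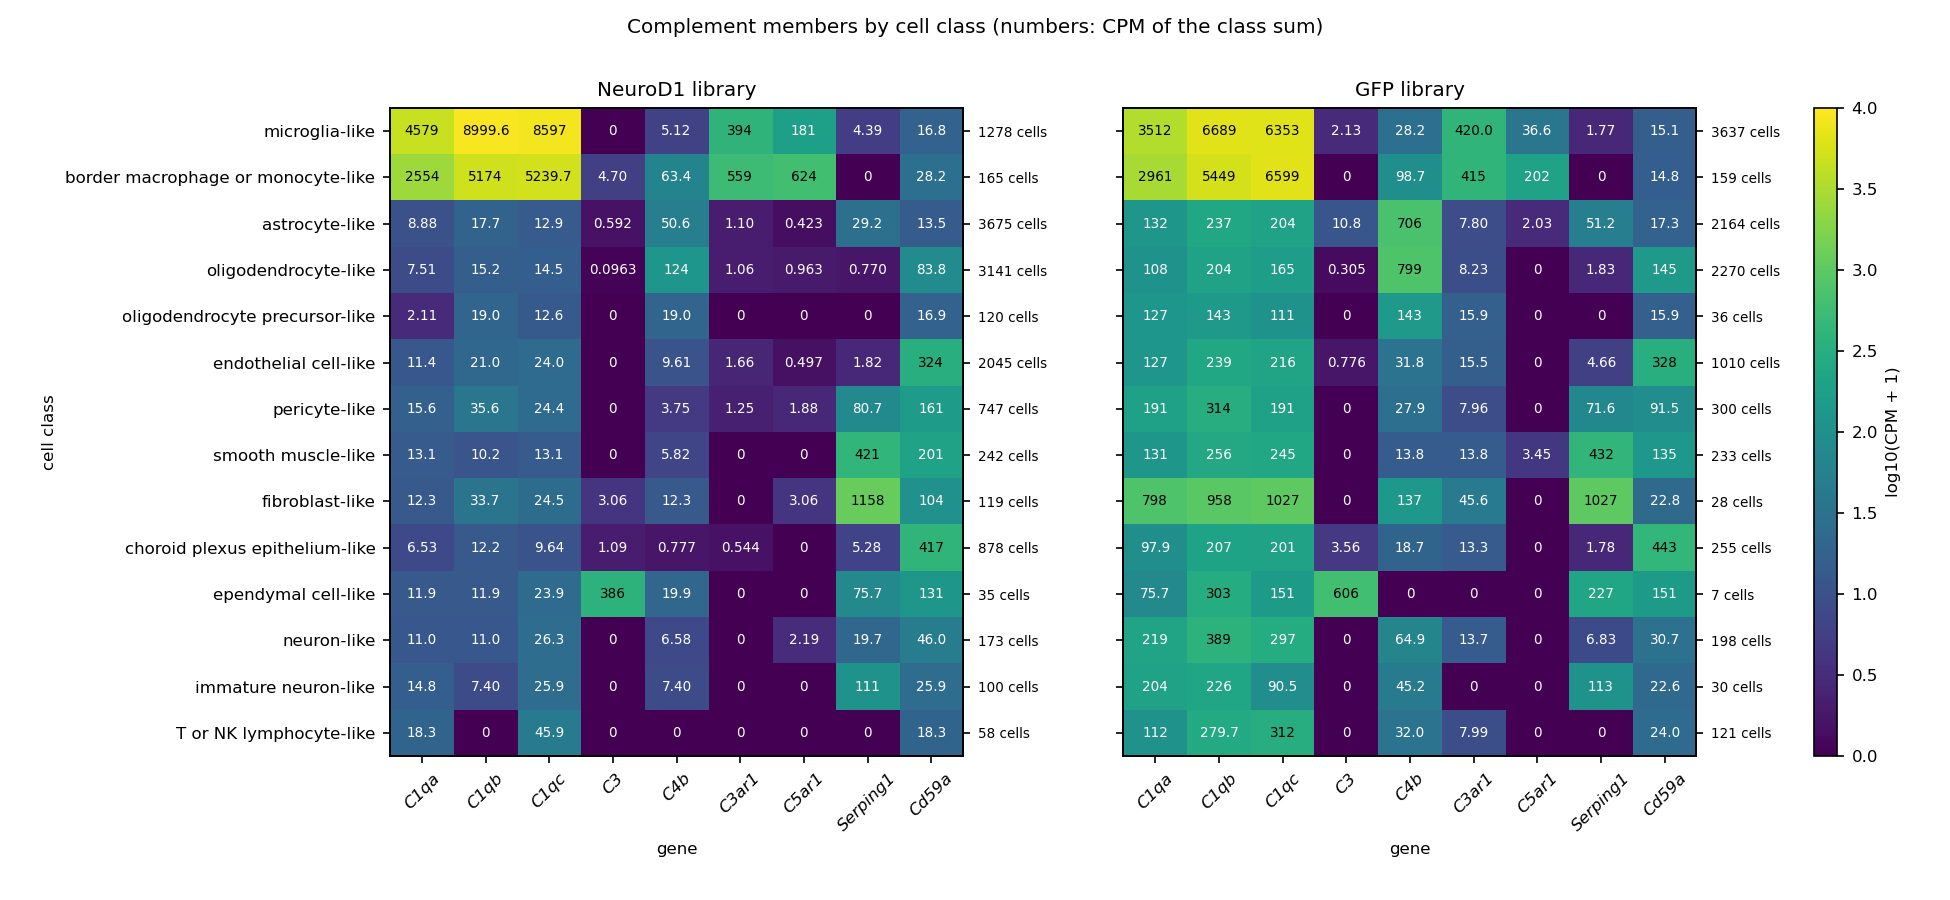
Level of each member, in CPM of the summed counts of a class, by cell class (rows, with the number of cells at the right) in the NeuroD1 library (left panel) and the GFP library (right panel). Colour gives log10(CPM + 1). The 3 C1q genes are bright in the top 2 rows of both panels, and C4b is bright in the astrocyte-like and oligodendrocyte-like rows of the GFP panel only, at 706 and 799 CPM.

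C1q is assembled from the products of 3 neighbouring genes. Promoter windows of 250 bases before to 50 bases after the annotated start were found in RefSeq (GRCm38.p6) for 6 of the 9 members, among them C1qb and C1qc, whose levels lead the results. These are shown because both hold the letters GAGGAA, the core bound by the myeloid factor PU.1, on one strand or the other. The C1qb window is chr4:136886151-136886450 on the minus strand and the C1qc window chr4:136892865-136893164 on the minus strand, both written 5′ to 3′ in the direction of transcription. Capitals mark GAGGAA or, on the other strand, TTCCTC:
C1qb: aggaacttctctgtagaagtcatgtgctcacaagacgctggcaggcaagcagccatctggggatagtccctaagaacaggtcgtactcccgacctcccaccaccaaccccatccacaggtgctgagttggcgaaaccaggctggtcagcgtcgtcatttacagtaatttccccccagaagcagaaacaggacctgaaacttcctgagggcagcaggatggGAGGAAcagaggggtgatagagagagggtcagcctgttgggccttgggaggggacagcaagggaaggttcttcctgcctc
C1qc: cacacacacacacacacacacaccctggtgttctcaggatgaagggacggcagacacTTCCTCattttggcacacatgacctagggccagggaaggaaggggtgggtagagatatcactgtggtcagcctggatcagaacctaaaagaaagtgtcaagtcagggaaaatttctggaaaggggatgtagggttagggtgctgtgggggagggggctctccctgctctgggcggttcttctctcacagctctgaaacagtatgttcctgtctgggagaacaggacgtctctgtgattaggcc
In C1qb the match begins 30 bases before the start, and in C1qc 193 bases before it. Cd59a, which is not a macrophage gene here, also has a match, 62 bases before its start, while the windows of C3, C3ar1 and C5ar1 hold none. The same letters occur on either strand in 28.3% of 32851 RefSeq promoter windows, so the match is a description of these windows. Among the other motifs searched on both strands, TTGCNNAA, the form bound by C/EBP factors, occurs in the C3 window 45 bases before the start and in 10.8% of all windows. The interferon-stimulated response element occurs in the Cd59a window 187 bases before the start and in 3.44% of all windows, and it overlaps no GAGGAA match. TTCNNNGAA, the element bound by STAT factors, occurs in none of the 6 windows and in 8.30% of all windows.

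C1q made up a large part of the microglial transcriptome in both libraries. Over the 3 chains, microglia-like cells held 60639 UMIs, or 22176 CPM, in the NeuroD1 library, against 93288 UMIs, or 16555 CPM, in the GFP library, a CPM ratio of 1.34 (interval 1.33 to 1.35). The median gene of the 12013 measured in this class had a ratio of 1.33, so C1q stood level with the typical gene there. C1qa was at 4579 CPM in NeuroD1 microglia-like cells and 3512 CPM in GFP ones, with a ratio of 1.30 (1.27 to 1.33). C1qb was at 8999.6 and 6689 CPM, with a ratio of 1.35 (1.32 to 1.37). C1qc was at 8597 and 6353 CPM, with a ratio of 1.35 (1.33 to 1.38). The 3 chains thus had ratios close to one another. Ribosomal protein transcripts, another large share of these cells, made up 3.09% of NeuroD1 and 8.18% of GFP microglial UMIs, and immediate early transcripts 3.10% and 1.53%, and their part in the ratio was not tested.

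Almost every microglia-like cell carried C1q. At the deposited depth, 18 of 1278 NeuroD1 cells (1.41%) and 4 of 3637 GFP cells (0.110%) had no UMI of any chain, and 96.7% and 93.2% had UMIs of all 3. The median cell held 41.5 C1q UMIs in the NeuroD1 library, against 21.0 in the GFP library, and the fullest 262 and 148. After each cell was thinned to 500 UMIs, 84.2% of NeuroD1 and 69.0% of GFP microglia-like cells still had all 3 chains. Within the class, the chains of a cell were only weakly related at that depth: Pearson's r between C1qb and C1qc was 0.23 over 1278 NeuroD1 cells and 0.19 over 3637 GFP cells, values from sparse counts that are given as a description.

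The microglia-like class was filled by different clusters in the libraries, and C1q differed among them. Cluster 7, led by the homeostatic genes Tmem119 and P2ry13, held 562 NeuroD1 and 627 GFP cells, with C1q at 24524 and 20356 CPM, a ratio of 1.20 (1.18 to 1.23). The median gene of this cluster had a ratio of 1.14. Cluster 11, led by Il1a and Nfkbid and also by the inflammatory gene Tnf, held 647 NeuroD1 and 92 GFP cells, with C1q at 22291 and 17832 CPM, a ratio of 1.25 (1.20 to 1.30) beside a median gene at 1.02. Cluster 1, led by Cst7 and Cd14 and also by Lpl, genes known from plaque-associated microglia, held 13 NeuroD1 and 2781 GFP cells. Its C1q stood at 30522 CPM in those 13 NeuroD1 cells and at 16176 CPM in the GFP cells, below the GFP level of clusters 7 and 11. Cycling cells of cluster 25 had the least, at 9936 CPM in 53 NeuroD1 cells and 11744 CPM in 64 GFP cells. The ratio was thus above 1 in clusters 1, 7, 11 and 26, the last with only 3 NeuroD1 and 73 GFP cells. In cluster 25 it was below 1, at 0.846 (0.793 to 0.902).

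Border macrophages and monocytes, which sit along vessels and meninges or come from blood, also carried C1q. Their summed level was 12968 CPM in 165 NeuroD1 cells and 15009.8 CPM in 159 GFP cells, a ratio of 0.864 (0.826 to 0.903), against a median gene at 0.982. C1qc was at 5239.7 CPM in NeuroD1 and 6599 CPM in GFP cells, while C1qb was at 5174 and 5449 CPM with an interval of the ratio that holds 1 (0.883 to 1.02). The makeup of C1q differed from that of microglia: C1qc supplied 40.4% of NeuroD1 and 44.0% of GFP border macrophage C1q UMIs, against 38.8% and 38.4% in microglia-like cells, and the intervals of the 2 classes (39.1 to 41.7% and 42.2 to 45.8%, against 38.4 to 39.2% and 38.1 to 38.7%) are apart in the GFP library and overlap in the NeuroD1 library.

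**Figure D2:**
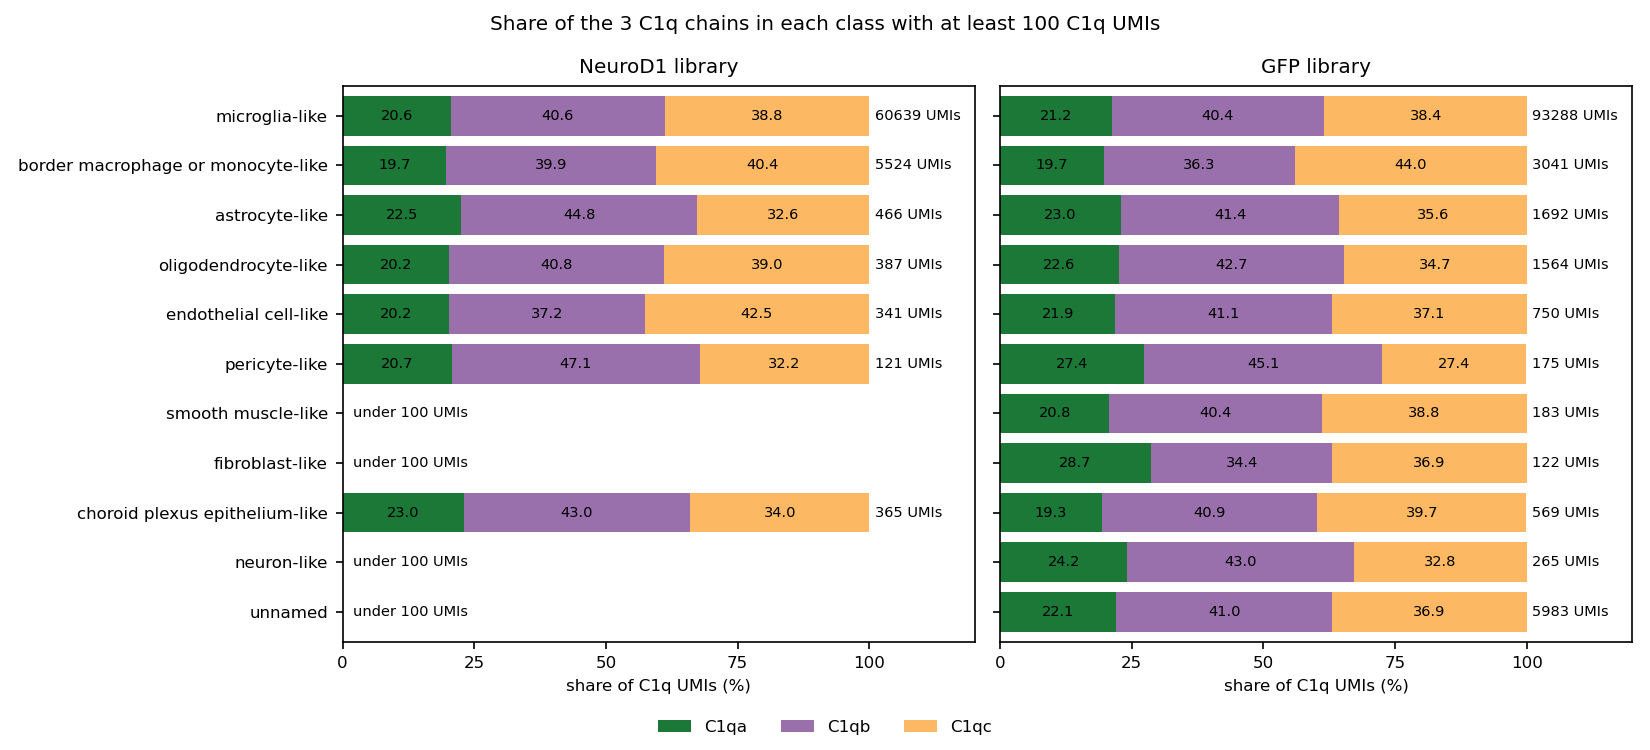
Share of C1qa, C1qb and C1qc among the C1q UMIs of each class (rows) in the NeuroD1 library (left) and the GFP library (right), for classes with at least 100 C1q UMIs, whose number stands at the right of each bar. In the microglia-like rows C1qa, C1qb and C1qc supply 20.6, 40.6 and 38.8% of the NeuroD1 UMIs and 21.2, 40.4 and 38.4% of the GFP UMIs, and most other rows follow the same division.

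Outside the macrophage classes, C1q was low and nearly even from class to class. In the NeuroD1 library the 12 other named classes with at least 30 cells ranged from 28.4 CPM in choroid plexus epithelium-like to 75.7 CPM in pericyte-like cells. In the GFP library 10 such classes ranged from 381 CPM in oligodendrocyte precursor-like to 905 CPM in neuron-like cells. Microglia are the known main source of C1q in the brain, so levels in this range were read as background. Whether cells of these classes also made some C1q was not tested. The 28 GFP fibroblast-like cells, too few for that range, had C1q at 2783 CPM, with the microglia marker list at 2441 CPM. The chains kept close to the microglial proportions there: among classes with at least 100 C1q UMIs, the interval of the C1qa share held the microglial share in 5 of 5 NeuroD1 and 8 of 8 GFP classes, and that of the C1qc share in 4 of 5 and 5 of 8. After thinning, 1.97 to 3.21% of the cells of such a class had any C1q UMI in the NeuroD1 library and 18.4 to 24.7% in the GFP library, leaving out the fibroblast-like cells at 39.3%. The summed microglia marker list also differed between the libraries, but less than C1q did. It was at 140.2 CPM in NeuroD1 and 724 CPM in GFP astrocyte-like cells, where C1q was at 39.4 and 573 CPM. None of the 10 genes of the list was at 0 there, and in microglia-like cells the list was at 31529.6 and 20474 CPM. The part of free RNA and of doublets that the caller missed in these values was not tested.

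Over all cells together, C1q was at 1403 CPM in the NeuroD1 library, against 6660.4 CPM in the GFP library, a ratio of 0.211 (0.209 to 0.213). With each cell thinned to the same depth it was 0.373, and as a mean over cells 0.375. Microglia-like cells supplied 89.2% of the C1q UMIs of the NeuroD1 library and 86.6% of those of the GFP library, while holding 5.64% and 34.8% of all UMIs. The pooled value therefore falls on the other side of 1 from the microglial one. As in any bulk sum, fewer cells of a type and less RNA per cell cannot be told apart in it. Of the 9 members, 5 were at least 1.5-fold lower over all cells (C1qa, C1qb, C1qc, C4b and C3ar1), where 22.6% of all 18068 genes with at least 20 UMIs were, and 1 (Cd59a) was at least 1.5-fold higher, where 17.1% were.

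C4b, which encodes the component that C1 cuts first, was far lower in NeuroD1 than in GFP glia. In astrocyte-like cells it had 598 UMIs, or 50.6 CPM (46.6 to 54.8), in the NeuroD1 library, against 2083 UMIs, or 706 CPM (676 to 737), in the GFP library. The CPM ratio was 0.0717 (0.0653 to 0.0785). In oligodendrocyte-like cells it had 1283 UMIs, or 124 CPM, in the NeuroD1 library, against 2621 UMIs, or 799 CPM, in the GFP library, a ratio of 0.155 (0.144 to 0.165). C4b is thus low in both NeuroD1 glial classes and high in both GFP ones. Thinned to 500 UMIs a cell, 2.39% of NeuroD1 and 24.8% of GFP astrocyte-like cells had a C4b UMI, and 5.54% and 27.8% of oligodendrocyte-like cells, against 11.1%, 42.2%, 22.9% and 47.6% unthinned. The microglia-like class, not known as a main source of C4, gave 0.156% of NeuroD1 and 1.46% of GFP cells at the same depth, below the glial shares of the same library. Single cells reached 7 UMIs in NeuroD1 and 13 UMIs in GFP astrocyte-like cells.

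In the NeuroD1 library the order of C4b levels ran from oligodendrocyte-like (124 CPM) through border macrophage or monocyte-like (63.4 CPM, 41.8 to 92.2) to astrocyte-like cells (50.6 CPM), the last 2 within each other's error. In the GFP library oligodendrocyte-like (799 CPM) stood above astrocyte-like cells (706 CPM), and next came oligodendrocyte precursor-like cells at 143 CPM from 9 UMIs (65.3 to 271), then fibroblast-like cells at 137 CPM from 6 UMIs (50.2 to 298), whose intervals overlap widely. Oligodendrocyte-like cells supplied 63.4% of the C4b UMIs of the NeuroD1 library and 52.0% of those of the GFP library, and astrocyte-like cells 29.6% and 41.3%. In border macrophage or monocyte-like cells the library difference was not detectable at this depth (27 and 20 UMIs, ratio 0.642, interval 0.347 to 1.21). The counting could split reads between C4b and its near-identical neighbour C4a. C4a had 15 UMIs in the NeuroD1 library, against 10 in the GFP library, where C4b had 2023 and 5040. How reads that fit both genes were counted is not known, so these counts cannot tell whether reads were shared, which was not tested.

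The C4b difference appeared in each glial cluster that both libraries filled, with at least 9 cells in each. Among astrocyte-like cells, cluster 2 (2365 NeuroD1 and 76 GFP cells) had 48.9 and 325 CPM. Cluster 5 (993 and 630 cells) had 57.8 and 449 CPM. Cluster 6 (132 and 1458 cells) had 121 and 789 CPM. The ratios of these 3 clusters ran from 0.129 to 0.153, so each is nearer to 1 than the ratio of the whole class. Among oligodendrocyte-like cells, cluster 0 (2680 and 541 cells) had 128 and 835 CPM, cluster 3 (350 and 1720 cells) 82.6 and 781 CPM, and cluster 24 (111 and 9 cells) 74.5 and 733 CPM, with ratios from 0.102 to 0.154. Another astrocyte-like cluster, 17, held 185 NeuroD1 and 0 GFP cells, with C4b at 41.9 CPM. The GFP transcript leads clusters 5 and 6 and took part in the clustering.

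**Figure D3:**
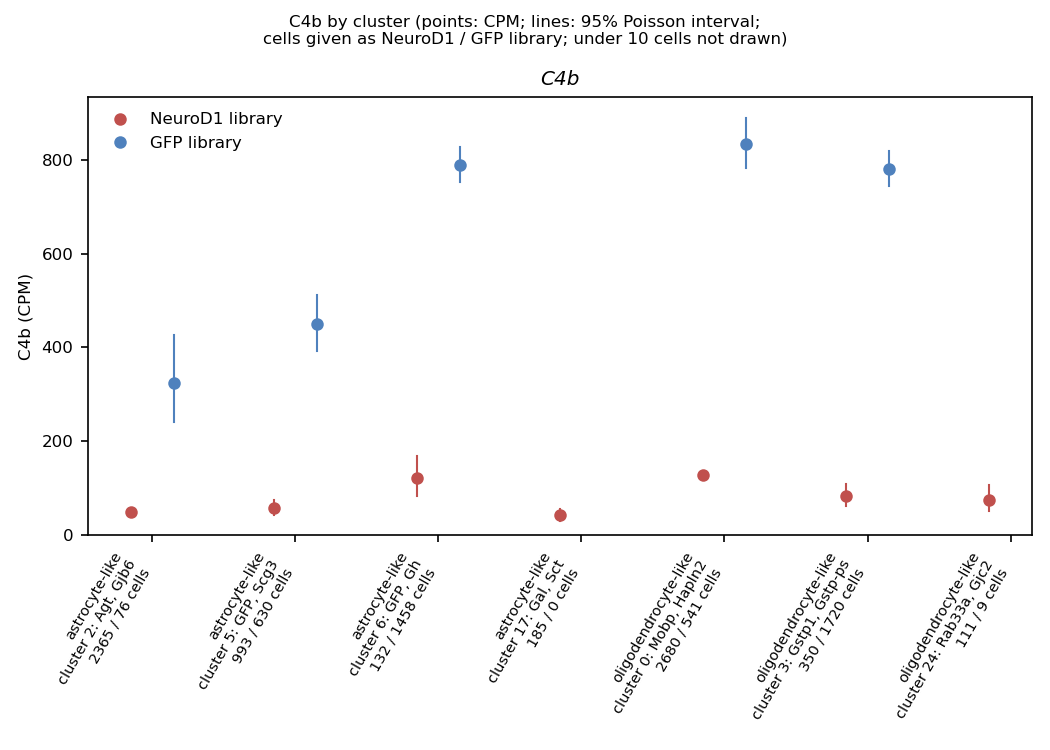
C4b level (CPM) by cluster in astrocyte-like and oligodendrocyte-like cells, with the NeuroD1 library at the left and the GFP library at the right of each tick. Points are CPM of the summed counts, lines are 95% Poisson intervals, and the numbers of cells stand under each cluster as NeuroD1 / GFP. Every NeuroD1 point lies at or below 128 CPM and every GFP point at or above 325 CPM.

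C4b was set beside Gfap and Serpina3n, genes known to be raised in reactive astrocytes, within each library. In the GFP library, 29.8% of cells with a Gfap UMI and 18.1% of those without had a C4b UMI after thinning, with intervals of 27.3 to 32.5% and 15.7 to 20.8%. In the NeuroD1 library the shares were 2.86% (2.06 to 3.86%) and 2.10% (1.54 to 2.78%), within each other's error. Both groups of NeuroD1 cells are below both groups of GFP cells. Among GFP astrocyte-like cells with Serpina3n, which encodes a secreted protease inhibitor, 45.3% had C4b, against 23.4% of those without. In the NeuroD1 library these shares were 16.7% (4.74 to 37.4%) of only 24 astrocyte-like cells and 2.30% (1.84 to 2.84%) of 3651. For oligodendrocyte-like cells the shares with and without Serpina3n were 18.8% and 5.40% in the NeuroD1 library, from 32 and 3109 cells, and 51.9% and 26.9% in the GFP library. GFP astrocyte-like cells that carried a GFP UMI had C4b less often, 20.1% (17.8 to 22.6%) of 1118 cells, than those without, 29.7% (27.0 to 32.6%) of 1046. The same split ran the other way in the NeuroD1 library, with C4b in 8.93% (2.96 to 19.6%) of 56 cells with a GFP UMI and 2.29% (1.83 to 2.84%) of 3619 without. These shares compare cells of 1 library, which are not replicates, and cells split by detection of a gene can differ in depth before thinning.

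C3, on which all complement pathways converge, was scarce. It had 122 UMIs in the whole NeuroD1 library and 60 in the GFP library, at 2.52 and 3.71 CPM. Ependymal cell-like cells, which line the ventricles, held 97 of the NeuroD1 UMIs (386 CPM in 35 cells) and 8 of the GFP UMIs (606 CPM, 262 to 1194, in 7 cells), levels within each other's error. That small class thus supplied 79.5% of the C3 UMIs of the NeuroD1 library and 13.3% of those of the GFP library. In astrocyte-like cells C3 had 7 UMIs in 6 of 3675 NeuroD1 cells and 32 UMIs in 14 of 2164 GFP cells, or 0.592 and 10.8 CPM, a ratio of 0.0546 (0.0203 to 0.126). Astrocytic C3 is widely used as a marker of a reactive state, and here 0.163% of NeuroD1 and 0.647% of GFP astrocyte-like cells had it before thinning. The difference rests on few cells: in cluster 5 it had 5 and 2 UMIs, a ratio of 1.29 (0.211 to 13.5), on the other side of 1, and in cluster 6 it had 1 and 30 UMIs, a ratio of 0.279 (0.00683 to 1.68). In the GFP library, 20 of the 32 UMIs lay in the 137 astrocyte-like cells with Serpina3n. Microglia-like cells had 0 C3 UMIs in the NeuroD1 library, which allows up to 1.10 CPM, and 12 UMIs (2.13 CPM) in the GFP library.

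The receptors for C3a and C5a behaved differently in the same cells. C3ar1 had 1078 UMIs, or 394 CPM, in NeuroD1 microglia-like cells and 2367 UMIs, or 420.0 CPM, in GFP ones, a ratio of 0.939 whose interval holds 1 (0.873 to 1.01). C5ar1 had 495 UMIs, or 181 CPM, in NeuroD1 microglia-like cells and 206 UMIs, or 36.6 CPM, in GFP ones, a ratio of 4.95 (4.20 to 5.85). On the same scale the median gene of the class stood at 1.33, so C5ar1 is above the typical gene and C3ar1 below it. After thinning, 6.89% of NeuroD1 and 1.35% of GFP microglia-like cells had a C5ar1 UMI, against 0.0272% and 0.139% of astrocyte-like cells. For C3ar1 the shares were 16.0% and 17.3% in microglia-like cells, against 0.0544% and 0.416% in astrocyte-like cells.

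The receptor pattern was also seen cluster by cluster. In homeostatic cluster 7, C5ar1 was at 119.7 CPM in NeuroD1 and 47.8 CPM in GFP cells, a ratio of 2.50 (1.63 to 3.96), and C3ar1 at 224 and 255 CPM, a ratio of 0.878 (0.704 to 1.10). In cluster 11, C5ar1 was at 229.6 CPM in NeuroD1 and 34.4 CPM in GFP cells from 382 and 5 UMIs, a ratio of 6.67 (2.83 to 20.6). There C3ar1 was at 503 and 517 CPM. In the 13 NeuroD1 cells of cluster 1, C5ar1 was at 179.8 CPM, against 35.3 CPM in its 2781 GFP cells. Cycling cluster 25 had C5ar1 at 29.5 and 46.5 CPM from 6 and 7 UMIs, with no detectable difference. C3ar1 varied more between clusters than between libraries: it was lowest in cluster 25 (138 CPM in NeuroD1, 232 CPM in GFP cells) and cluster 7, and higher in clusters 1 and 11 in both libraries. The immediate early share given above for the whole class, 3.10% of NeuroD1 and 1.53% of GFP microglial UMIs, was also higher in the NeuroD1 library. Its part in the C5ar1 ratio was not tested.

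**Figure D4:**
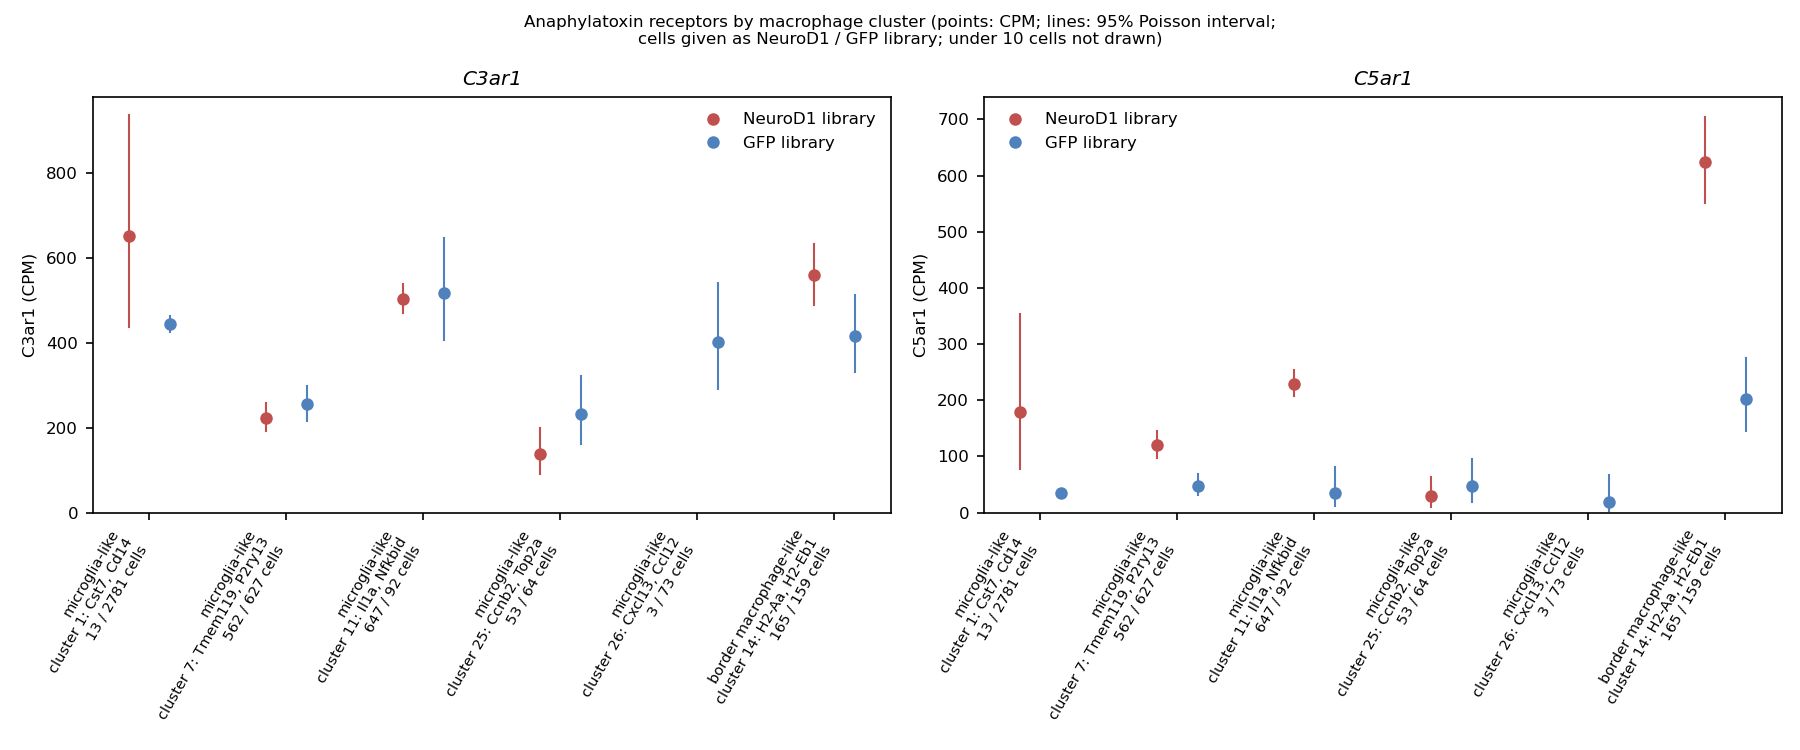
C3ar1 (left panel) and C5ar1 (right panel) levels in CPM by microglia-like and border macrophage or monocyte-like cluster, NeuroD1 library at the left and GFP library at the right of each tick. Points are CPM of the summed counts and lines 95% Poisson intervals; groups of under 10 cells are not drawn. C5ar1 intervals of the libraries are apart in clusters 7, 11 and 14, where C3ar1 intervals overlap.

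Border macrophage or monocyte-like cells had the highest C5ar1 of any class with 100 or more cells. It stood at 624 CPM from 266 UMIs in NeuroD1 cells and 202 CPM from 41 UMIs in GFP cells, a ratio of 3.09 (2.21 to 4.40). C3ar1 was at 559 CPM in NeuroD1 and 415 CPM in GFP cells, a ratio of 1.35 (1.05 to 1.75). Of 6 members measured in this class, 1 (C5ar1) was at least 1.5-fold higher, where 19.6% of all genes were, and 1 (C4b) at least 1.5-fold lower, where 18.7% were. Over all cells C5ar1 was at 16.3 CPM in each library, with microglia-like cells holding 5.64% of all NeuroD1 UMIs and 34.8% of all GFP UMIs.

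**Figure D5:**
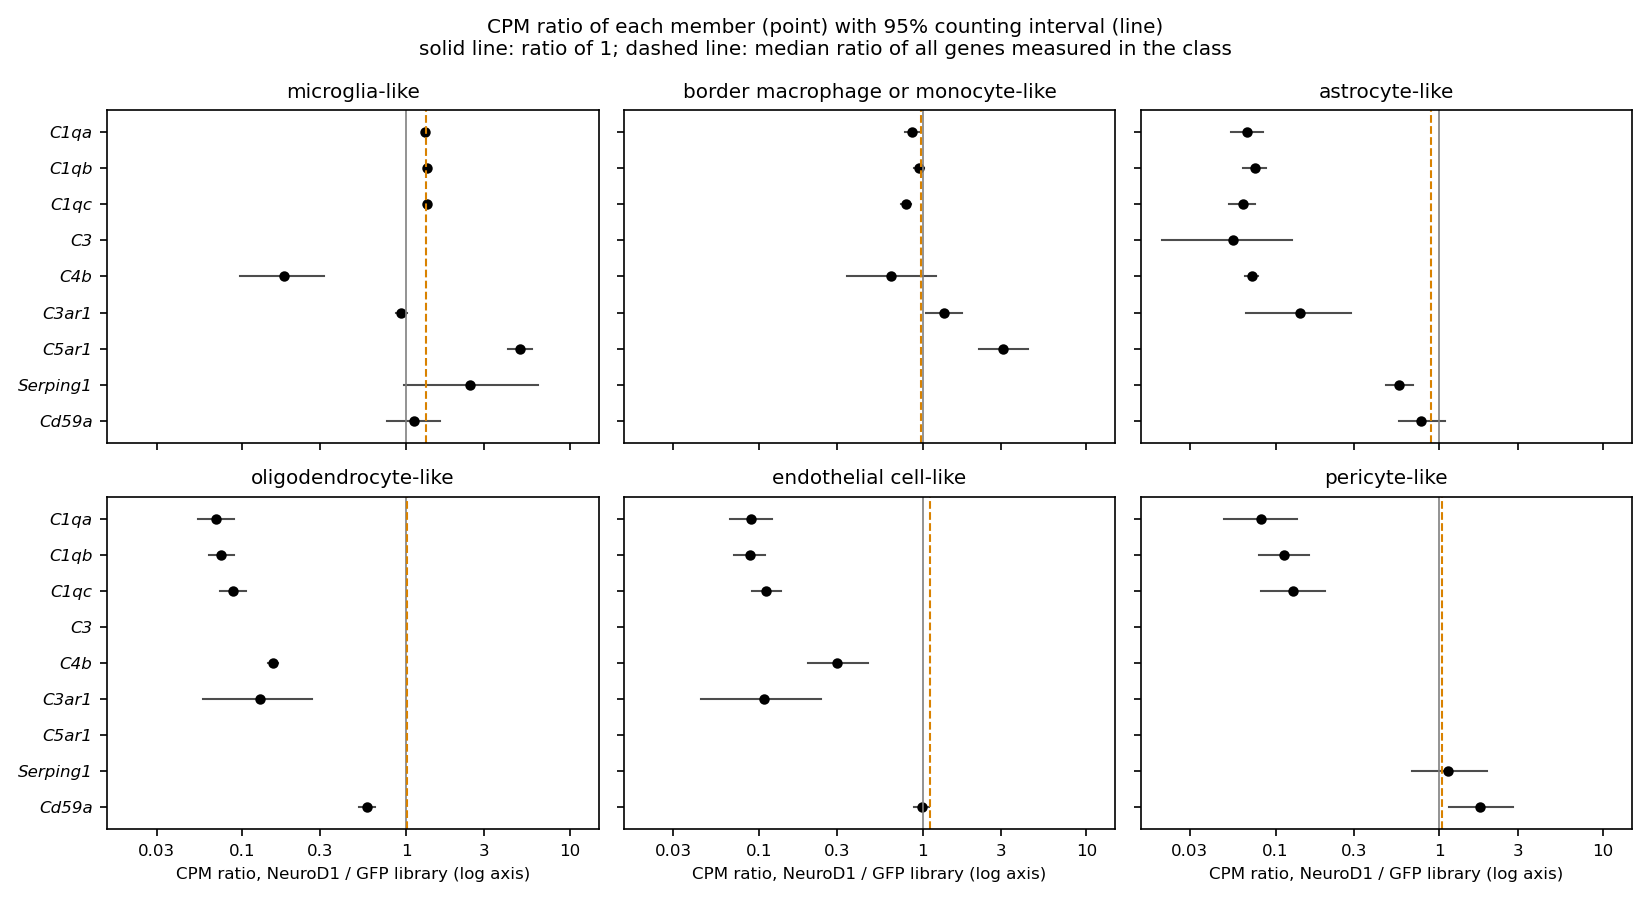
CPM ratio of the NeuroD1 to the GFP library (log axis) for each member with at least 20 UMIs, in 6 classes. Points are ratios, lines 95% counting intervals, the solid line is a ratio of 1 and the dashed line the median ratio of all genes in the class. C5ar1 lies right of both lines in the microglia-like (4.95) and border macrophage (3.09) panels, and C4b lies left of them in the astrocyte-like (0.0717) and oligodendrocyte-like (0.155) panels.

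Serping1, the C1 inhibitor, was highest, in CPM, in fibroblast-like and smooth muscle-like cells. By count, the larger astrocyte-like class held 345 of its 1298 UMIs in the NeuroD1 library and 151 of its 376 in the GFP library. Fibroblast-like cells had 378 UMIs, or 1158 CPM, in the NeuroD1 library, against 45 UMIs, or 1027 CPM, in the GFP library, from 119 and 28 cells. Smooth muscle-like cells had 421 and 432 CPM, a ratio of 0.975 (0.788 to 1.21). Pericyte-like cells had 80.7 and 71.6 CPM, and immature neuron-like cells 111 CPM from 30 UMIs and 113 CPM from 5 UMIs. Ependymal cell-like cells had 75.7 CPM from 19 UMIs and 227 CPM from 3 UMIs. In none of these classes did the library difference exceed counting error. Border macrophage or monocyte-like cells had 0 UMIs in each library.

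Astrocyte-like cells were the exception. Serping1 was at 29.2 CPM from 345 UMIs in the NeuroD1 library, against 51.2 CPM from 151 UMIs in the GFP library, a ratio of 0.570 (0.470 to 0.695). Its NeuroD1 UMIs were uneven: cluster 17, led by Gal and Sct and with no GFP cell in it, held 174 of the 345 at 152 CPM. In clusters 2, 5 and 6 the NeuroD1 level was 15.6, 19.3 and 18.3 CPM, against 19.1, 35.4 and 56.9 CPM in GFP cells, with intervals that hold 1 in clusters 2 and 5 and a ratio of 0.321 (0.103 to 0.770) in cluster 6. Astrocyte-like cells with and without Gfap had Serping1 in 2.23% (1.53 to 3.14%) and 0.624% (0.342 to 1.05%) of NeuroD1 cells, and in 2.61% (1.79 to 3.66%) and 1.07% (0.513 to 1.95%) of GFP cells, where the intervals overlap. Microglia-like cells had 12 NeuroD1 and 10 GFP UMIs, a level too low for a direction.

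Cd59a, the inhibitor of the membrane attack complex, was highest in choroid plexus epithelium-like and endothelial cell-like cells, where its pooled levels were close between the libraries. Choroid plexus epithelium-like cells had 5370 UMIs, or 417 CPM, in the NeuroD1 library, against 498 UMIs, or 443 CPM, in the GFP library, a ratio of 0.942 (0.859 to 1.03). The median gene of this class had a ratio of 0.780, so Cd59a stood above the typical gene there. Ttr, a marker of the class, made up 45.8% of its NeuroD1 and 29.2% of its GFP UMIs, which enter every CPM of the class. Endothelial cell-like cells had 324 and 328 CPM, a ratio of 0.989 (0.889 to 1.10), but each of the 3 endothelial clusters, which the libraries filled unevenly, had a ratio under 1. Cluster 4 (1744 and 118 cells) had 334 and 421 CPM (0.795, 0.643 to 0.994), while the intervals of clusters 9 (0.803, 0.589 to 1.08) and 23 (0.668, 0.354 to 1.42) hold 1. Its near copy Cd59b, which could share reads, was at 21.2 and 43.6 CPM in choroid plexus epithelium-like cells, from 273 and 49 UMIs (ratio 0.487, 0.358 to 0.674), and had 12 and 1 UMIs in endothelial cell-like cells. Thinned shares were 14.5% and 14.2% of endothelial cell-like cells and 17.1% and 22.0% of choroid plexus epithelium-like cells, against 0.704% and 0.825% of microglia-like cells.

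Oligodendrocyte-like cells stood apart, with Cd59a at 83.8 CPM from 870 UMIs in the NeuroD1 library, against 145 CPM from 475 UMIs in the GFP library, a ratio of 0.578 (0.517 to 0.648). Their clusters 0 and 3 gave 84.9 and 54.0 CPM in NeuroD1 cells against 199 and 117 CPM in GFP cells, ratios of 0.428 (0.368 to 0.499) and 0.463 (0.314 to 0.664). In mural cells the pooled values ran the other way, with pericyte-like cells at 161 and 91.5 CPM (1.76, 1.15 to 2.83, but 0.837 in cells with at least 1000 UMIs) and smooth muscle-like cells at 201 and 135 CPM (1.49, 1.04 to 2.19). The 2 pericyte-like clusters were filled unevenly. Cluster 16, in which all 10 endothelial markers were also up, had 239 CPM in 185 NeuroD1 cells and 226 CPM in 39 GFP cells, and cluster 10 had 52.6 CPM in 562 and 29.1 CPM in 261 cells, each with an interval of the ratio that holds 1. Over all cells Cd59a was at 184 CPM in the NeuroD1 library, against 101 CPM in the GFP library, a ratio of 1.82 (1.73 to 1.92), with 60.3% and 30.5% of its UMIs from choroid plexus epithelium-like cells, of which there were 878 and 255.

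Counted by class, 7 of the 8 members measured in astrocyte-like cells with at least 20 UMIs were at least 1.5-fold lower in the NeuroD1 library, where 25.6% of all 13314 genes were, and 0 were that much higher, where 9.63% were. In oligodendrocyte-like cells 6 of 6 were lower (15.5% of genes). In endothelial cell-like cells 5 of 6 were lower (12.5%) and 0 higher (21.9%). The 3 C1q genes, at levels read above as background, and C3ar1, at 7.80 to 15.5 CPM in the GFP cells, are in each of these 3 counts. Apart from them, the lower members were C3, C4b and Serping1 in astrocyte-like cells, C4b and Cd59a in oligodendrocyte-like cells and C4b in endothelial cell-like cells. Endothelial C4b was low, at 9.61 CPM in NeuroD1 and 31.8 CPM in GFP cells. In microglia-like cells, not known as a main source of C4, it was at 5.12 and 28.2 CPM. In choroid plexus epithelium-like cells 5 of 7 were lower (34.8%) and 1 higher (8.65%), in pericyte-like cells 3 of 5 lower (16.8%) and 1 higher (23.7%), in smooth muscle-like cells 3 of 5 lower (15.3%) and 0 higher (19.4%), and in neuron-like cells 4 of 5 lower (25.6%) and 0 higher (35.5%). The lower members of pericyte-like and smooth muscle-like cells are the 3 C1q genes alone, at levels read as background. Those of choroid plexus epithelium-like and neuron-like cells are these with C4b, and in the choroid plexus C3ar1, at low levels. In microglia-like cells 1 of 8 was lower (C4b, 14.0% of genes) and 2 were higher (C5ar1 and Serping1, 40.4%). C4b stood there at the low level just given and Serping1 at the low counts given above. The median log2 ratio over the measured members was 0.41 in microglia-like cells, as over all genes. In astrocyte-like cells it was -3.77, beside -0.16 over all genes, but the C1q genes, at levels read as background, weigh on it. C1qa, C1qb and C1qc were at -3.89, -3.74 and -3.99 and C3ar1 at -2.80. C3 was at -4.12, C4b at -3.80, Serping1 at -0.81 and Cd59a at -0.37.

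Of 40 other complement genes listed, all were in the files, and 7 had 0 UMIs in both libraries: Mbl2, Cfd, C7, C8a, C8b, Vsig4 and C4bp. A count of 0 allows up to 0.0619 CPM in the NeuroD1 library, against 0.185 CPM in the GFP library. Of the lectin and classical proteases, C1s1 was at 137 CPM in NeuroD1 and 231 CPM in GFP smooth muscle-like cells and C1ra at 33.5 and 24.2 CPM, each with a near copy (C1s2, C1rb) that could share reads. Masp1, a lectin pathway protease, was at 5.97 CPM in NeuroD1 and 42.7 CPM in GFP oligodendrocyte-like cells, a ratio of 0.140 (0.102 to 0.190). Properdin (Cfp) and the ficolin Fcna were found in border macrophage or monocyte-like cells, at 242 and 409.7 CPM and at 174 and 212 CPM.

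The receptor integrins differed by partner. Itgam, the alpha chain of complement receptor 3, was at 648 CPM in NeuroD1 and 264 CPM in GFP microglia-like cells, a ratio of 2.45 (2.29 to 2.63). Itgax, the alpha chain of complement receptor 4, was at 5.12 and 52.4 CPM, a ratio of 0.0978 (0.0528 to 0.167), with the plaque-associated cluster 1 holding most GFP cells. Their shared beta chain Itgb2 was at 322 and 287 CPM, a ratio of 1.12 (1.03 to 1.22). The median gene of the class had a ratio of 1.33, so Itgam stood above the typical gene and Itgb2 below it. Secreted regulators were high in other classes. Clusterin (Clu) reached 19547 and 15901 CPM in astrocyte-like cells, and vitronectin (Vtn) at 13111 and 17531 CPM in pericyte-like cells. The membrane regulator Cr1l was at 175 and 194 CPM in endothelial cell-like cells, a ratio of 0.904 (0.787 to 1.04).

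Over these 40 genes, 9 of the 13 measured in astrocyte-like cells were at least 1.5-fold lower in the NeuroD1 library and 1 (C2, interval 0.992 to 2.70) at least 1.5-fold higher. Of the 9, the intervals of Cfp (0.197 to 1.09), C8g (0.314 to 1.28), Cd46 (0.240 to 1.10) and Cd59b (0.256 to 1.82) also hold 1. In oligodendrocyte-like cells 5 were lower and 1 higher of 9, and in microglia-like cells 4 lower and 4 higher of 11. In endothelial cell-like cells 1 was lower and 2 higher of 8, and in border macrophage or monocyte-like cells 4 lower and 1 higher of 11. The intervals hold 1 for the higher Cfp in oligodendrocyte-like cells (0.518 to 9.53) and the higher C1ra (0.872 to 29.4) and Cd55 (0.647 to 7.04) in endothelial cell-like cells. They also hold 1 for the lower Cd93 (0.249 to 1.20) and Vtn (0.362 to 1.08) in border macrophage or monocyte-like cells. Among the 9 lower in astrocyte-like cells, Itgam, Itgb2 and Vtn are genes of macrophages or pericytes at under 60 CPM there. The shares of all genes in the same classes and directions are those given for the members, except that none is given for genes higher in oligodendrocyte-like cells.

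Genes whose levels ran most like those of a member were searched among 11602 genes over 24 points, 12 classes in each of the 2 libraries, which share depth and background within a library. For C1qb these were Mpeg1 (Pearson's r 0.965), Cd83 (0.955) and Trem2 (0.952). For Serping1 they were Angpt1 (0.882), Cap2 (0.832) and Klhl23 (0.831). For C4b they were Washc2 (0.818), Phlpp1 (0.797) and Ank (0.754), and for C3 they were Klhdc7a (0.781), Crb2 (0.670) and Apoe (0.659). No gene followed C4b or C3 as closely as Mpeg1 followed C1qb.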

How the data were processed

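Single cells from papain-dissociated hippocampus were caught in chip microwells with barcoded beads, per the labels' protocols; the labels' platform field names another system, and which is right is not settled here. Per the submitters' processing notes, FastQC, fastp, cutadapt, STAR and featureCounts were used with mm39; versions, annotation release and strand setting are not given in the sources used here. Files hold whole-number UMI counts, which the authors deposited per gene and barcode, with no barcode under 500 UMIs.

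The members and lists were chosen with earlier results of these data known. Barcodes with fewer than 200 genes or over 20% mitochondrial UMIs were dropped (131 NeuroD1 and 104 GFP barcodes), and Scrublet calls removed, 485 (3.65%) and 556 (4.78%). With scanpy 1.11.5, counts scaled to 10000 were log transformed and clustered on 3000 variable genes, leaving out the 49 complement genes, Neurod1, and genes that are sex-linked, immediate early, ribosomal, mitochondrial or of haemoglobin (30 components, 15 neighbours, Leiden resolution 1.0; 29 clusters). A cluster was named where at least 3 and at least 50% of a class's markers were 2-fold up and in 10% of its cells and no other class had more markers among its 10 leading genes. 1 cluster stayed unnamed: its leading genes hold 1 neuron marker and 0 microglia markers. A difference from the study may come from these rebuilt names. CPM is per 1000000 UMIs of the class sum. Intervals are exact (Poisson for a level, Clopper-Pearson for a share, conditional binomial for a ratio). Those of ratios were checked on Poisson counts simulated from class sums, which leave out any further spread between cells. Shares of cells were compared after thinning to 500 UMIs. A member was described in each class, and other genes by the fixed list; a gene counts as higher or lower at 1.5-fold, with 20 UMIs over both libraries. Coordinates of promoters belong to GRCm38.p6 and were not mixed with the files' build.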

Additional observations from a re-analysis of the deposited data

Results flagged for a closer look

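Cd59a had a CPM ratio of the NeuroD1 to the GFP library of 0.578 (0.517 to 0.648) in oligodendrocyte-like cells and 1.76 (1.15 to 2.83) in pericyte-like cells, so its library difference ran opposite ways in these classes. The difference between the classes was not tested, since each group is 1 library. Within the 2 pericyte-like clusters the intervals hold 1, and in pericyte-like cells with at least 1000 UMIs the ratio was 0.837.

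C1q was also high in a cluster that the report's comparisons leave out. This unnamed cluster of 6 NeuroD1 and 625 GFP cells had 5983 C1q UMIs in the GFP library, or 10458 CPM and 5.55% of the C1q of that library, and its chains divided as 22.1% C1qa, 41.0% C1qb and 36.9% C1qc. Of the 10 microglia markers, 8 were up in it and together reached 11731 CPM, and Kif5a, Rab3c and Nrgn, genes of neurons, were among its leading genes. Its part in the C1q background of other GFP classes was not tested.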

How the results depend on the processing

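Of 457 alternative values of 45 CPM ratios, over 11 settings, 377 moved by less than their counting interval, 77 moved by more and 3 reversed. Of 32 alternative counts of genes, 20 stayed within 1.5 times and 12 did not. The reversed ratios were C3 in astrocyte-like cells (1.29 in cluster 5, the astrocyte-like cluster with the most cells in the library that has fewer of them, with 5 and 2 C3 UMIs), C3ar1 in oligodendrocyte-like cells (2.43 after the lowest class was subtracted) and Cd59a in pericyte-like cells (0.837 in cells with at least 1000 UMIs). The C1q ratio in microglia-like cells was 1.38 with at most 10% mitochondrial UMIs, 1.43 at Leiden resolution 0.5, 1.30 at resolution 2.0, 1.27 with Ttr, haemoglobin, mitochondrial and ribosomal protein genes left out of the CPM, 1.35 as a mean over cells, 1.38 after subtraction of the lowest class and 1.20 in the cluster chosen the same way. Over all cells C1q was 0.206 with the mitochondrial limit, 0.214 with doublets kept, 0.229 with those genes left out, 0.373 thinned, 0.375 as a mean over cells and 0.204 in cells with at least 1000 UMIs. In the clusters so chosen C4b in astrocyte-like cells was 0.129, C5ar1 in microglia-like cells 2.50 and Cd59a in oligodendrocyte-like cells 0.428, the last also 0.684 thinned. C3ar1 in microglia-like cells was 1.01 at resolution 0.5 and 0.852 as a mean over cells. The cause of these changes was not tested.

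No paired analysis was possible because each group is 1 library, and no replicate was left out for the same reason. PCR and cell capture error are outside the intervals. Depth limits C3, and the GFP values of classes with under 50 cells.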
